A study of Mus musculus with 6 samples.

Results

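The accessible intervals of mouse chromosome 2 are described here in fibroblasts that lack Ezh2. They are all rows on chromosome 2 in 1 deposited list, 2483 of 21835 intervals in all (11.4%), and were chosen by position in a list that the authors had selected on the signal itself. The levels of the intervals are therefore given as a description. The data are ATAC-seq, in which a transposase cuts and tags open chromatin, on an embryonic fibroblast line (line A, also called C2) immortalised with c-myc, a growth-promoting transcription factor. The study had 3 groups of 2 samples: wild-type cells, Ezh2 -/- cells, and Ezh2 -/- cells rescued with the retrovirus pMSCV-Ezh2. The list is that of the Ezh2 -/- cells. Lists of the other groups were not used here, and no value compares genotypes. All groups come from the same line and carry the same immortalisation. The list gives no value per replicate and its read depth is unknown, so no replicate error exists and no test was made. As a check of the cell label, 10 of 15 fibroblast marker genes had an interval at a gene end, among them Vim, Col5a1 and Fbn1 on chromosome 2, while Pdgfra, Thy1, Dcn, Lum and Fap had none. Of 16 markers of epithelial, endothelial, blood, pluripotent and neuronal cells 4 had one (Krt8, Cd68, Sox2 and Rbfox3). Over all protein-coding genes the share was 47.4%, and with so few markers the counts describe the label and do not establish it.

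Open chromatin in a differentiated cell lies at the promoters of active genes and at distal elements such as enhancers, which often sit far from the gene they act on. Ezh2 is the enzyme of Polycomb repressive complex 2, which methylates histone H3 at lysine 27 and keeps many developmental genes silent. Chromosome 2 carries several kinds of neighbourhood side by side: clusters of olfactory receptor genes, which are silent outside the nose, the HoxD cluster of positional homeobox genes, a cluster of zinc finger genes, and gene-rich stretches with housekeeping, growth-response and matrix genes. The question put to the list was how its intervals fall among these neighbourhoods.

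Promoter sequences of 6 genes show the range of sites that the results below turn on. They run from 250 bases before to 50 bases after the gene's start, come from RefSeq on GRCm38.p6 (the assembly behind mm10) and are printed 5′ to 3′ on the gene's strand, with every CG dinucleotide in capitals. The genes were chosen after their values were seen. Top1, DNA topoisomerase I, had the highest maximum signal of any called region of chromosome 2 whose peak stood inside a gene. Snai1, a repressor of epithelial genes, lies in the densest 1-Mb bin. Rps21, a small-subunit ribosomal protein gene, lies under the region of highest total signal. Hoxd8 and Hoxd13 are the HoxD gene with an interval and the end gene of the cluster, which had none. Olfr988 is the first olfactory receptor gene of the longest receptor stretch for which a promoter was given.

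The promoter windows on chromosome 2 are given with their positions, strand and sequence.
Top1, chr2:160645647-160645946, plus strand: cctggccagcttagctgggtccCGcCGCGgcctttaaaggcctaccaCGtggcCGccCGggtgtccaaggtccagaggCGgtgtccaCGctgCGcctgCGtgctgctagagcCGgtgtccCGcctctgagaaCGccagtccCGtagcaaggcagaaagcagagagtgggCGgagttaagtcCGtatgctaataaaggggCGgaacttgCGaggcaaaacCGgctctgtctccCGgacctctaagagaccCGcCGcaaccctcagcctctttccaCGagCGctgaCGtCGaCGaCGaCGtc
Snai1, chr2:167537945-167538244, plus strand: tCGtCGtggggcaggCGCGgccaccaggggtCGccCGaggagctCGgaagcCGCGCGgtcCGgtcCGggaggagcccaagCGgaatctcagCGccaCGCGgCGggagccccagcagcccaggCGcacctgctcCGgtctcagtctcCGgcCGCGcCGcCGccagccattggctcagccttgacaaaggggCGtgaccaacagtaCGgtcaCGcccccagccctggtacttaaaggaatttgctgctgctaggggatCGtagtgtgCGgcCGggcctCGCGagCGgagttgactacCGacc
Rps21, chr2:180257129-180257428, plus strand: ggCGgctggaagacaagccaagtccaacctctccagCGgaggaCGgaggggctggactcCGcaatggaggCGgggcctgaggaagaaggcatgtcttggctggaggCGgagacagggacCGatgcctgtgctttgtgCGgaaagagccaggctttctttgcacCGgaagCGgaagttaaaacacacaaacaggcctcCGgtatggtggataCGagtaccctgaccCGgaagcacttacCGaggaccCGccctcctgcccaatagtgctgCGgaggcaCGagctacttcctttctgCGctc
Hoxd8, chr2:74704365-74704664, plus strand: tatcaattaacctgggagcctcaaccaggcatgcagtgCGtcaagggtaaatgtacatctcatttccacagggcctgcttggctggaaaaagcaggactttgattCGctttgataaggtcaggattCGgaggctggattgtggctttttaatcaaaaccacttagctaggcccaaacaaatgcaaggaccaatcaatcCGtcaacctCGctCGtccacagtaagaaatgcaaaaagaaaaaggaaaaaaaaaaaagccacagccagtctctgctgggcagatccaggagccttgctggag
Hoxd13, chr2:74667975-74668274, plus strand: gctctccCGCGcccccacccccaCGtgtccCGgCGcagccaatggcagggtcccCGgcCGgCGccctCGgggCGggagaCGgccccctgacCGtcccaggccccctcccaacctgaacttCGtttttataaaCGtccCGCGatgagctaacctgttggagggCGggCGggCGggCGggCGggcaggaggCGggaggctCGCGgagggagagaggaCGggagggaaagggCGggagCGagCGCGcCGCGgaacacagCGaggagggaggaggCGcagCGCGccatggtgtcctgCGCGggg
Olfr988, chr2:85353875-85354174, minus strand: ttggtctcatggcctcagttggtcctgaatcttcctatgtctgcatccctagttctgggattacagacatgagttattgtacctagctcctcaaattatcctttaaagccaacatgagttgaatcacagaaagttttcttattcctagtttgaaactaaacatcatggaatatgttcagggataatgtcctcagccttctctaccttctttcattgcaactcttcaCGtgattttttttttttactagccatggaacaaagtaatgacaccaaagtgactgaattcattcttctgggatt

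The Top1, Snai1 and Rps21 windows held 29, 34 and 18 CG dinucleotides and lay entirely under an interval. The Hoxd8 window held 6, and its interval covered 137 of the 300 bases. The Hoxd13 window held 37, more than any other printed, and no interval touched it. The Olfr988 window held 1 and had no interval.

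Chromosome 2 had more intervals for its length than most autosomes, and the surplus was larger at distal sites than at gene ends. Its intervals numbered 13.88 per Mb against 8.46 per Mb over the other 18 autosomes, the fourth highest density of 19. It ranked behind chromosomes 11 (20 per Mb), 5 (16.6 per Mb) and 19 (15.6 per Mb). Intervals whose midpoint lay within 1 kb of either end of a protein-coding gene, called gene-end intervals here, stood at 3.578 per Mb on chromosome 2 and 2.982 per Mb on the other autosomes, a ratio of 1.2. All others, called distal, stood at 10.3 and 5.477 per Mb, a ratio of 1.88. The intervals covered 7.25 Mb, or 4.05% of the 179 Mb between the outermost genes or intervals. Protein-coding genes were also denser on chromosome 2, at 9.962 per Mb against 8.346 per Mb. Per gene there were 1.39 intervals against 1.01. Genes are counted below by a wider rule. A gene had a gene-end interval where any interval overlapped the 1 kb around either end, wherever its midpoint lay. On chromosome 2 876 intervals touched a gene end in this way, against 640 by midpoint.

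**Figure D1:**
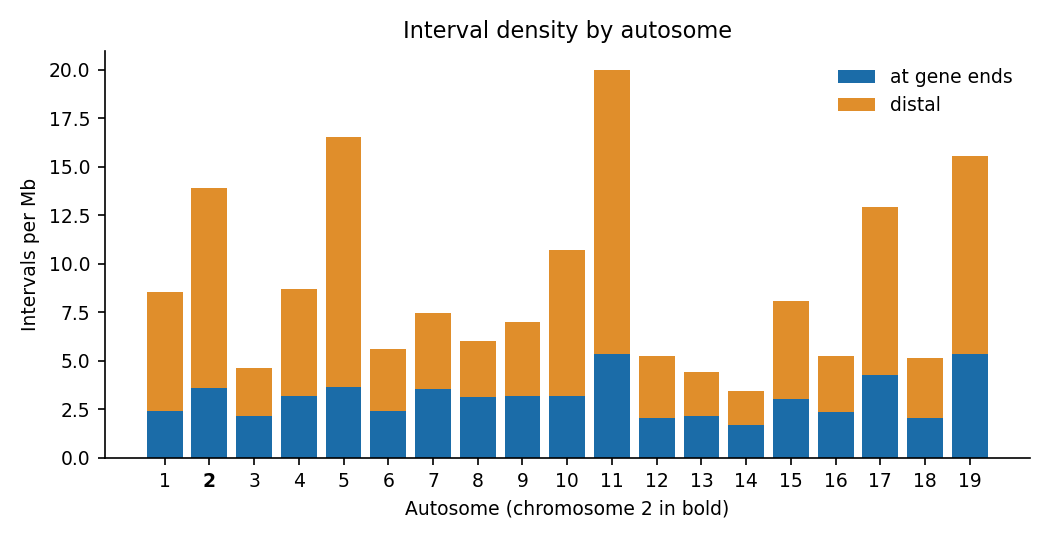
Intervals per Mb on each of the 19 autosomes, with gene-end intervals (blue) stacked under distal intervals (orange). Chromosome 2, at 13.9 per Mb in all, stands below chromosomes 11, 5 and 19, and 10.3 of its 13.9 intervals per Mb are distal.

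The called regions of chromosome 2 were large in total signal and low in height. An interval in the list can be a piece of a called region, so rows that repeat the same signal values were collapsed, which left 2079 called regions. Of the intervals 655 did not contain the maximum they were listed with, so some stretches of called regions are not in the list. No source used here says how the pieces arose, and a place with no interval may have been left out after calling or never called. Counts, widths and empty stretches below are to be read with that limit. Total signal is the area under the coverage and maximum signal its height, both in the authors' units. The median total signal was 32785 (quartiles 21892.5 and 52430) on chromosome 2 and 28769 on the other autosomes. The median maximum went the other way, 23 (quartiles 16 and 36) against 27. Regions with a maximum under 15 made up 16.02% of those on chromosome 2 (333 of 2079) and 11.27% elsewhere. Only chromosome 5 had a larger share of them, at 19.5%. Split regions were also more frequent: 329 of the called regions (15.82%) appeared as several intervals, up to 6, against 10.68% on the other autosomes. Chromosomes 11 and 5 had larger shares of them, 20.7% and 18.0%. Counting only regions with a maximum of at least 30, chromosome 2 had 4.07 per Mb against 3.28, a ratio of 1.24 in place of the 1.64 for all intervals. The called regions of chromosome 2 nearest to the calling threshold had total signals of 15357 (inside Myef2), 15381 (Cep152) and 15382 (inside Plcb4), and regions just below it were not analysed here.

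Along the chromosome the intervals gathered in 2 blocks with a long sparse stretch between them. The 10-Mb bins from 20 to 30 and 30 to 40 Mb held 274 and 329 intervals, and those from 150 to 160 and 160 to 170 Mb held 338 and 389. These 4 of 19 bins held 53.6% of all intervals. Among the 257 10-Mb bins of the autosomes they ranked 15, 8, 7 and 5. The 70 Mb from 40 to 110 Mb held 228 intervals, 9.18% of the chromosome's total, with a mean of 3.26 per Mb. The lowest bins were 100 to 110 Mb with 12 intervals and 80 to 90 Mb with 14. Between 110 and 150 Mb the mean was 13.2 per Mb, and beyond 170 Mb it was 20.5.

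**Figure D2:**
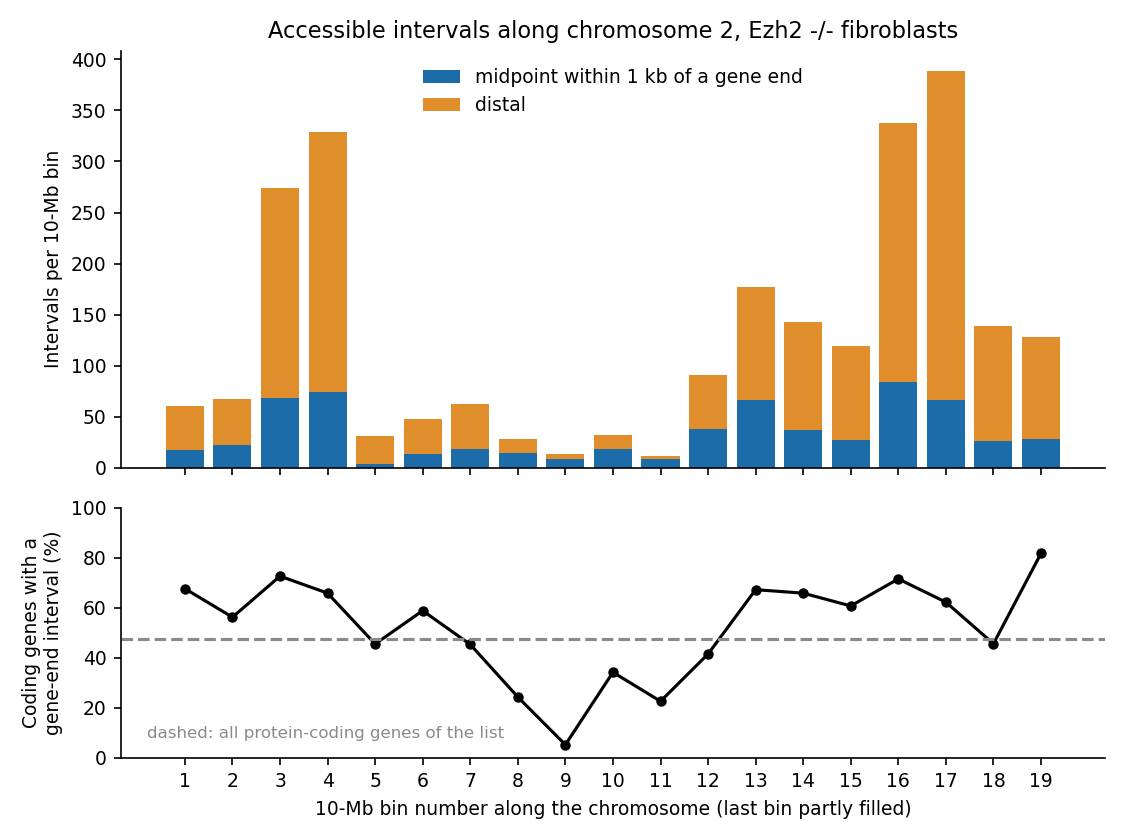
Upper panel: intervals in each 10-Mb bin of chromosome 2, gene-end (blue) and distal (orange) by midpoint. Lower panel: percent of protein-coding genes in the bin with a gene-end interval by any overlap, with the 47.4% of all protein-coding genes dashed. Bins 3, 4, 16 and 17 hold 274, 329, 338 and 389 intervals, and the share of genes is lowest in bin 9, at 5.24%.

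The step into the first block was steep. The 1-Mb bins from 19 to 24 Mb held 7, 2, 7, 1 and 5 intervals, the bin from 24 to 25 Mb held 20, and that from 25 to 26 Mb held 53. Genes rose at the same place, from 6 protein-coding genes in the bin at 23 Mb to 16 and 60 in the next ones. Over the 183 bins of 1 Mb the number of intervals followed the number of protein-coding genes, with a Spearman correlation of 0.64, and of 0.78 over the 173 bins with no olfactory receptor gene. Over 2215 such bins of the other autosomes it was 0.75. These are descriptions across neighbouring bins of 1 list, which share its depth and threshold. Bins of chromosome 2 with 10 to 19 genes held a mean of 25.8 intervals against 14.2 on the other autosomes, and those with 20 or more held 29.7 against 25.7. When bins with 5 or more olfactory receptor genes were left out, the last pair became 40.5 and 28.2. Bins with no protein-coding gene held a mean of 0.455 intervals on chromosome 2 and 0.334 elsewhere.

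Distal regions were lower in maximum signal than gene-end regions in all 6 segments of the chromosome. The median maximum signal of gene-end regions was 40 from 20 to 40 Mb, 32 from 40 to 110 Mb, 39 from 150 to 170 Mb and 35.5 beyond 170 Mb. That of distal regions was 20, 23, 19 and 17 in the same order, and 23 in the first 20 Mb. From 110 to 150 Mb, a less dense segment, the medians were 39 at gene ends and 19 at distal sites, and 23.1% of the distal regions had a maximum under 15, against 20% from 20 to 40 Mb. Median total signal at gene ends was higher in the denser segments, though not in their order of density. It was 50573.5 from 20 to 40 Mb, 45145.5 from 150 to 170 Mb and 47558.5 beyond 170 Mb. In the first 20 Mb it was 38249, from 110 to 150 Mb 38488 and from 40 to 110 Mb 24767. Split regions made up 4.96% in the first 20 Mb, 19.9% from 20 to 40 Mb, 2.24% from 40 to 110 Mb and 24.8% beyond 170 Mb. For each protein-coding gene outside the olfactory receptor family there were 1.53 distal intervals from 20 to 40 Mb, 0.441 from 40 to 110 Mb and 1.89 from 150 to 170 Mb. The distal intervals thus thinned out by more than the genes did in the sparse stretch. In that stretch 36.2% of the genes outside the receptor family had a gene-end interval, against 75.7% from 20 to 40 Mb and 67.6% from 150 to 170 Mb.

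The densest 1-Mb bin, from 167 to 168 Mb, held 80 intervals over 26.3% of its bases. Of them 10 lay at gene ends and 70 were distal, 43 between genes and 27 inside them. It ranked 11 among the 2470 1-Mb bins of the autosomes. Of its 13 protein-coding genes 11 had a gene-end interval, where the share over the whole list was 47.4% and over chromosome 2 51.0%. The bin was picked for its many intervals, so a high share follows in part from that choice. The same holds for the other dense bins below. The highest total signal belonged to Ube2v1, a partner of ubiquitin-conjugating enzymes, with 252746 in a region of 4 pieces whose maximum of 64 stood 12838 bp from the gene. Znfx1, an antiviral helicase gene, followed with 226278 and a maximum of 59 placed 135 bp from the gene's end. Cebpb, a leucine-zipper factor of the inflammatory and growth response, had 190094 and a maximum of 52. Snai1, which represses epithelial genes and marks mesenchymal cells, had 89807 and a maximum of 49. B4galt5, a galactosyltransferase of glycolipid synthesis, had 96611, Tmem189 128060, and the neighbours Rnf114 and Spata2 shared an interval of 44242. The prostacyclin synthase gene Ptgis was among the genes without an interval there. The next bin, from 168 to 169 Mb, held 69 intervals, and 9 of its 10 genes had a gene-end interval. Pard6b, a cell polarity gene, led it with 131321, ahead of the phospholipid flippase gene Atp9a (120922), where the interval lay at the far end only. The calcium-responsive factor gene Nfatc2 had 117881 and the zinc finger gene Zfp64 89501. The neighbours Adnp and Dpm1 shared 62663, Mocs3 had 58509 and Kcng1 48005. Sall4, a zinc finger gene of embryonic stem cells, was the gene without one.

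In the first block the densest bins were 27 to 28 Mb with 71 intervals and 30 to 31 Mb with 68. From 27 to 28 Mb 11 of 13 genes had a gene-end interval, led by Rxra, the retinoid X receptor, with 159356. That region came in 3 pieces and its maximum lay outside the piece at the gene's end. Wdr5, a core subunit of histone H3 lysine 4 methyltransferases, had 119049, the collagen gene Col5a1 105477 and the guanine nucleotide exchange factor gene Vav2 97723. Lower values stood at Cacfd1 (50429), Brd3os (50060), Adamtsl2 (49812) and the muscle fusion gene Mymk, whose 46619 came with a maximum of only 14. The bromodomain gene Brd3 and Fam163b had none. From 30 to 31 Mb 26 of 28 genes had one, the exceptions being Kyat1 and the volume-regulated anion channel gene Lrrc8a. The neighbours 1700001O22Rik and Ntmt1, an N-terminal methyltransferase gene, shared a region of 169107. Crat, carnitine acetyltransferase, and Dolpp1 shared 150668. Asb6 had 155218, the growth-response gene Ier5l 114948, Cstad 105906 and the kinase gene Pkn3 92219. The fifth bin, which starts at 180 Mb near the chromosome's end, held 68 intervals and a gene-end interval at 22 of 26 genes. Cables2, Rbbp8nl and Rps21 shared 414785, Col9a3, Mrgbp and Ogfr 228557, and the histamine receptor gene Hrh3 and Osbpl2 182111. The proteasome gene Psma7 was among the 4 genes without one there, with Mtg2, Ss18l1 and Tcfl5. All 12 bins with 50 or more intervals lay in the 2 blocks or beyond, 4 from 20 to 40 Mb and 8 from 150 Mb to the end.

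At the other extreme 40 of 183 bins held no interval (21.9%, against 24.4% on the other autosomes), and 22 of these did contain protein-coding genes. The longest gap ran for 7.75 Mb from 94438689 to 102185281 and held 7 genes, among them the synaptic adhesion gene Lrrc4c, the ubiquitin ligase gene Traf6, Prr5l, Iftap and Commd9. The second, 5.52 Mb from 85061629 to 90579197, held 227 genes, of which 222 were olfactory receptors. Fads2b, Lrrc55, Pramel6, Pramel7 and Aplnr, the apelin receptor gene, were the others. The third, 4.73 Mb from 39373799 to 44103023, held only Lrp1b, a giant lipoprotein receptor gene, and Kynu. The fourth, 4.52 Mb from 105400487 to 109917205, held 13 genes, with Dcdc5, Elp4, Mettl15, Mpped2 and Kif18a the longest. The fifth, 3.92 Mb from 53192970 to 57113594, held Galnt13, the potassium channel gene Kcnj3, Gm38481 and Rprm. In all 29 gaps exceeded 1 Mb and together made up 64.7 Mb. The median distance between neighbouring intervals was 8.22 kb from 20 to 40 Mb and 71.9 kb from 40 to 110 Mb.

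Of 8 empty bins with at least 5 genes, 5 were olfactory receptor bins. Another was the bin from 101 to 102 Mb with Rag1 and Rag2, the recombinase genes of lymphocytes, beside Traf6, Commd9, Iftap and Prr5l. The last pair, from 175 to 177 Mb, lay between filled bins in the otherwise dense end of the chromosome. Of their 14 and 9 genes 13 and 8 were named as zinc finger (Zfp) or predicted (Gm) genes, for example Zfp965, Zfp966, Zfp967 and Zfp973, and none had an interval. Genes of such clusters, and olfactory receptors, can be near-identical in sequence, so values there are uncertain. No source used here says how reads that map to several places were treated.

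Not an interval of the list fell in the olfactory receptor stretches of chromosome 2. A stretch was taken as at least 5 receptor genes joined where neighbours lay at most 500 kb apart. That gave 3 of them: 36376778 to 37332732 with 28 receptor genes, 85330967 to 90401674 with 222, and 111230853 to 112157007 with 37. Together they span 6.95 Mb and hold all 287 receptor genes of the chromosome. None of these genes had a gene-end interval (0 of 287, exact 95% binomial upper bound 1.28%), and the density was 0 against 14.4 per Mb over the rest of the chromosome. The longest stretch, 5.07 Mb, lies in the sparse segment from 40 to 110 Mb, which had a mean of 3.26 per Mb. For that stretch 14.4 per Mb is not the density of its surroundings. The receptor genes elsewhere on the autosomes had an interval at 7 of 817 (0.857%). Their 29 stretches held 66 intervals at 2.96 per Mb, and 15 of the 29 held none. Other protein-coding genes inside those stretches had a gene-end interval at 32 of 106 (30.2%). On chromosome 2 only 3 other genes lay inside a stretch, Fads2b, Pramel6 and Pramel7, and none had one (exact upper bound 70.8%). The nearest interval lay 127 kb before and 88.8 kb after the first stretch, 269 and 178 kb around the second, and 1042.5 and 81.9 kb around the third. The first stretch sits inside the dense block from 20 to 40 Mb. The bin from 35 to 36 Mb beside it held 36 intervals, and those from 36 to 37 and 37 to 38 Mb, which share the stretch, held 14 and 18. Without olfactory receptors 909 of 1495 genes of chromosome 2 had a gene-end interval (60.8%), against 51.7% of such genes on the other autosomes. Chromosomes 19, 11, 5 and 10 had higher shares, 66.7%, 63.8%, 63.2% and 62.9%. With receptors counted the shares were 51.0% on chromosome 2 (909 of 1782, exact interval 48.7 to 53.4) and 49.5% on the other autosomes. Binomial intervals here cover counting over genes only.

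**Figure D3:**
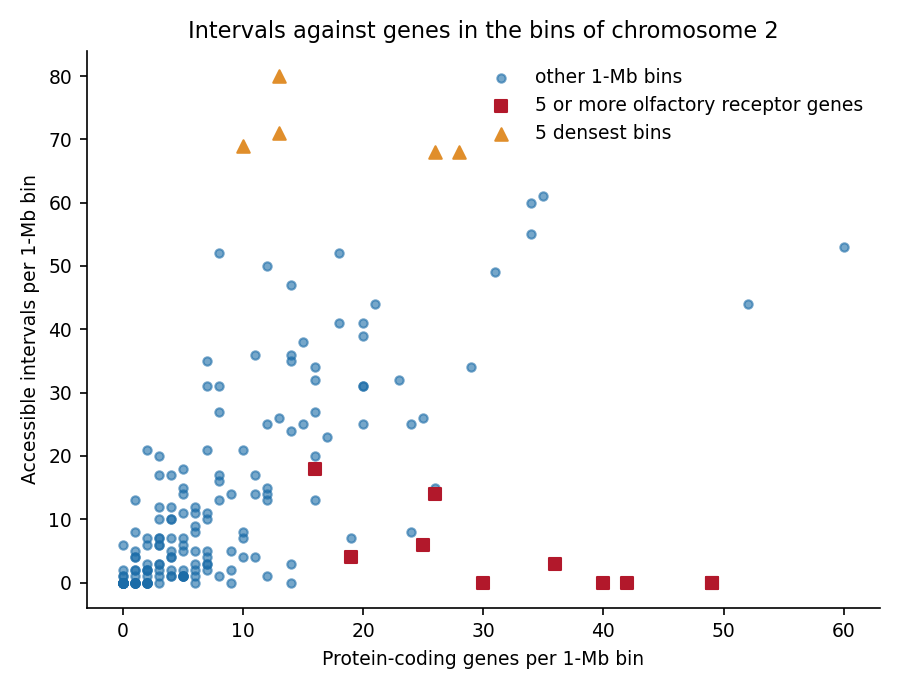
Each point is a 1-Mb bin of chromosome 2, placed by its number of protein-coding genes (x) and of accessible intervals (y). Bins with 5 or more olfactory receptor genes (red squares) hold 0 to 18 intervals, 5 of them 0, and the 5 densest bins (orange triangles) hold 68 to 80.

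Of the 2483 intervals 640 were at gene ends (25.8%), 1050 inside genes (42.3%) and 793 between genes (31.9%). On the other autosomes the shares were 35.3%, 36.96% and 27.8%. Chromosome 5 had a smaller share at gene ends, 21.9%, and chromosome 11 a similar one, 26.9%. The lower share on chromosome 2 than on the other autosomes together held with every window and gene set tried. By distance from the nearest gene end, 20.4% of the intervals lay at 1 to 5 kb, 25.3% at 5 to 20 kb, 14.9% at 20 to 50 kb and 13.7% beyond 50 kb. The widest margin over the other autosomes was at 5 to 20 kb, where they had 20.9%. Strand was known for 1544 of the 1782 genes. Of these, 729 (47.2%) had an interval within 1 kb of their start and 278 (18.0%) at their far end. The far end alone had one at 68 genes. On the other autosomes the shares were 47.1% and 13.9% of 14913 genes, so the share at far ends was the higher on chromosome 2. Olfactory receptors made up 243 of the 1544 genes, none with an interval, and 695 of the 14913. They lower both shares more on chromosome 2, so the near-equal shares at starts hold only with receptors counted. Of non-coding genes, 259 of 951 lncRNA genes of chromosome 2 had a gene-end interval (27.2%, against 20.7%) and 27 of 644 pseudogenes (4.19%, against 3.02%). For miRNA genes the share was the lower on chromosome 2, 19 of 147 (12.9%) against 22.1%.

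Gene-end regions were taller than distal ones. The median maximum signal was 37 (quartiles 26 and 50) over 569 gene-end regions and 20 (quartiles 15 and 28) over 1510 distal regions. On the other autosomes these medians were 37 and 22. Median total signals were 40410 and 29573.5 on chromosome 2, against 33157 and 25950. A maximum of at least 40 was reached by 44.3% of gene-end and 10.5% of distal regions. Read from the height, the same pattern appeared as a gradient. The maximum lay within 1 kb of a gene end in 6.31% of regions with a maximum under 15, in 16.3% at 15 to 29, in 59.3% at 30 to 59 and in 84 of 107 (78.5%) at 60 or more. The tallest of the 23 regions of 60 or more that peaked elsewhere stood inside Osbpl2 (83), 6463 bp from Shf (75) and 1708 bp from Gzf1 (75). Gata3, a factor of T cells and several epithelia, had no gene-end interval, yet a maximum of 61 stood in its body at a distance of 8303 bp from an end.

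**Figure D4:**
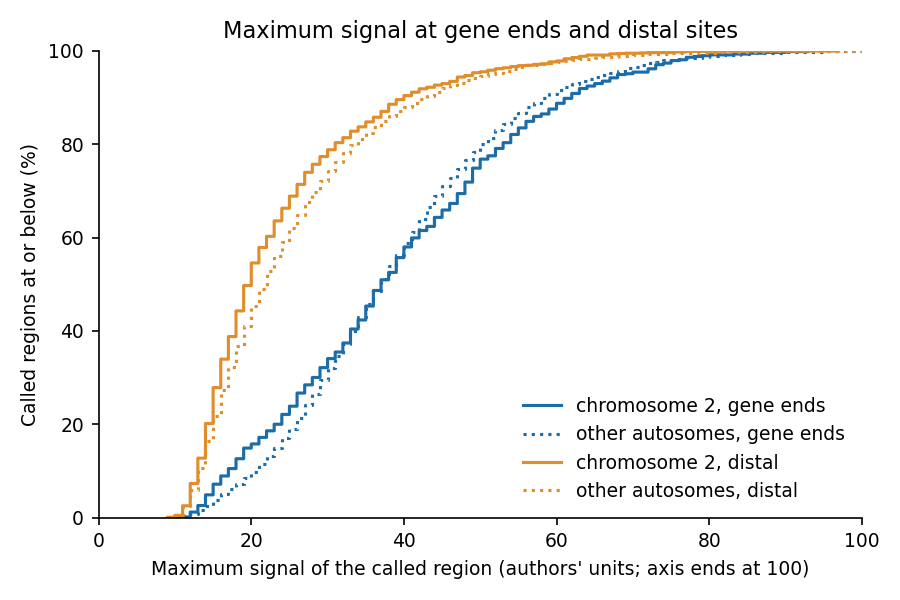
Cumulative percent of called regions (y) at or below a given maximum signal (x, authors' units) at gene ends (blue) and distal sites (orange), for chromosome 2 (solid) and the other autosomes (dotted). The medians are 37 at gene ends on both, and 20 and 22 at distal sites.

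The called regions with the highest totals were broad, and most lay in several pieces. Of the 10 highest, 9 came in pieces, 6 began beyond 150 Mb and 3 between 20 and 40 Mb. The highest, 414785, spanned 40606 bp from 180250573 to 180291178 over Rps21, Cables2, a partner of cyclin-dependent kinases, and Rbbp8nl. It contained the widest interval, 36181 bp, and its maximum of 79 stood 171 bp from an end of Cables2. The second, 368538, ran from 32567677 to 32609769 in 5 pieces past Dpm2, Pip5kl1, Fam102a and the sialyltransferase genes St6galnac4 and St6galnac6, with its maximum of 57 at 39 bp from St6galnac4. The third, 335686 with a maximum of 47, lay at the forkhead gene Foxs1 and the skeletal muscle kinase gene Mylk2. The fourth, 276684 in 6 pieces, lay at the polarity gene Crb2 and had its maximum of 42 away from it, at 7139 bp. Next came Ube2v1, then a region of 245347 over Rpl35, Arpc5l and Wdr38, Shf with 236172, the region of Mrgbp, Ogfr and Col9a3, Znfx1, and Taf4, a subunit of the general factor TFIID, with 225111. After the interval over Rps21 the widest were 21760 bp over Rpl12, Lrsam1 and Slc2a8 (211217), 18864 bp over Rpl35 and its neighbours, 15065 bp at Znfx1 and 14333 bp at the far end of Entpd6 (138291). Each of the 3 widest intervals lay over a ribosomal protein gene.

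The tallest regions were mostly other ones, and peaked at gene ends. The lists of the 10 highest totals and the 10 highest maxima shared 1 region, that over Cables2 and Rps21. In 9 of the 10 tallest the distance from the maximum to the nearest gene end was under 250 bp. Lsm14b, an RNA-binding protein gene, had the highest maximum of the chromosome, 97, with a total of 125719, and Top1 followed with 93 and 83878. Scai, whose product restrains SRF-dependent transcription, had 90 over an interval of only 1443 bp (54570). The neighbours Mkks, a chaperonin-like gene, and Slx4ip had 87, the protease gene Tasp1 85, Osbpl2 83, the tubulin gene Tubb4b 82, Thnsl1 and Enkur 80, and the pair Orc4, of the origin recognition complex, and Mbd5 78. Maxima elsewhere on the autosomes reached 186.

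Distal regions reached high totals both inside genes and far from any. Of the 10 highest with no piece touching a gene end, 7 had their maximum inside a gene and 3 between genes, with totals of up to 187702. The first lay 87332 bp from Cebpb, from 167763718 to 167782760 in 4 pieces, with a maximum of 63. The second, 173013, lay inside Nfatc2. Another between genes, 169588, stood 87278 bp from 1700001O22Rik, and Gsn, which encodes the actin-severing protein gelsolin, held 168844. Nol4l held 165617. Pmepa1, a TGF-beta-induced gene, had a region inside it (150519) and a second 75808 bp from its end (156475). Mvb12b and the dynamin gene Dnm1 held 145711 and 130866. By count, Dab2ip and Nol4l held the most intervals, 13 each, then Plcb4 and Col5a1 with 12. Plcb1, Fmnl2, Ralgps1, Prex1 and Nfatc2 held 11. Among the longest genes the counts varied widely. Plcb1 (689 kb) held 11, Frmd4a 6 and Arhgap15 4. Lrp1b (2058.3 kb), Lrrc4c (1313.5 kb), Etl4, Galnt13 and Ryr3 held no interval, Macrod2 (1997.7 kb) and Ptprt (1139.2 kb) held 2 each, and Nol4l held its 13 in 123 kb. Of 200 genes of at least 100 kb 70 held none and 10 held 10 or more. These genes were chosen after their counts were seen.

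Neighbouring genes often shared an interval. Of the 876 intervals that touched a window of 1 kb around a gene end 212 (24.2%) touched those of several genes, up to 5, so the counts by gene below are not independent of each other. The signal given for a gene can come from a piece at its far end even where its start has an interval too. This was so for Rxra, Wdr5, Ube2v1, Cdk5rap1, Dnajc17, Lama5, Fbn1, Lhx6 and H13, among others. At Rxra, Ube2v1, Cdk5rap1, Fbn1 and Lhx6 the maximum also lay outside that piece.

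The highest shares of genes with a gene-end interval were found for the lists of translation, immediate-early and stress response, cell cycle and chromatin genes. The shares are to be read against 51.0% of all protein-coding genes of chromosome 2 and 60.8% without olfactory receptors. Of 23 genes of ribosomal proteins and translation 21 had one (91.3%, exact interval 72.0 to 98.9), with a median total of 60818. Rps21, Rpl35, Rpl12 and the splicing factor gene Prpf6 (202490) led, and Eif3m and Nat10 had none. Of 26 cell cycle and replication genes 23 had one (88.5%, interval 69.8 to 97.6). Cdk9, a kinase that releases paused polymerase, had 133540, Cdk5rap1 110417, the mitotic ubiquitin enzyme gene Ube2c 92603 and the replication gene Gins1 91321. Cdca7, Haus2 and Kif18a had none. This list was drawn broadly too, and Cdk9 and Cdk5rap1 are not cell cycle genes in the strict sense. The median maximum of this group, counted by gene, was 51, with 67 at the mitotic kinase gene Aurka and 66 at Pcna, the sliding clamp of replication. The median of 37 for gene-end regions counts each called region once and classes it by midpoint, so it is not a like measure. Of 22 immediate-early and stress-response genes 20 had one (90.9%, interval 70.8 to 98.9), with Cebpb (190094), Id1, an inhibitor of differentiation factors (158441), the survival gene Bcl2l1 (127059) and Ier5l (114948) ahead. Creb3l1 and Csrnp3 had none. That list was drawn broadly and also counts Abl1, Arrdc1, Ppp1r16b, Ptgs1, Src, Stx16 and Zfp64. Its share is therefore that of the list and not of response genes alone. Of 28 chromatin regulator genes 23 had one (82.1%, interval 63.1 to 93.9), with Wdr5, the histone H3 lysine 9 methyltransferase gene Ehmt1 (100082), the remodeller gene Chd6 (89946) and Asxl1, of the Polycomb deubiquitinase (78194), ahead. Brd3, Phf19 and Prdm12 were the first without one in alphabetical order. Of 21 genes of proteasome, ubiquitin and chaperones 14 had one (66.7%, interval 43.0 to 85.4, which holds both background shares), led by Ube2v1, Dnajc17 (96152), Dnajc5 (89601) and Traf2 (85289). Csnk2a1, Dnajc10 and Hspa12b were the first without.

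**Figure D5:**
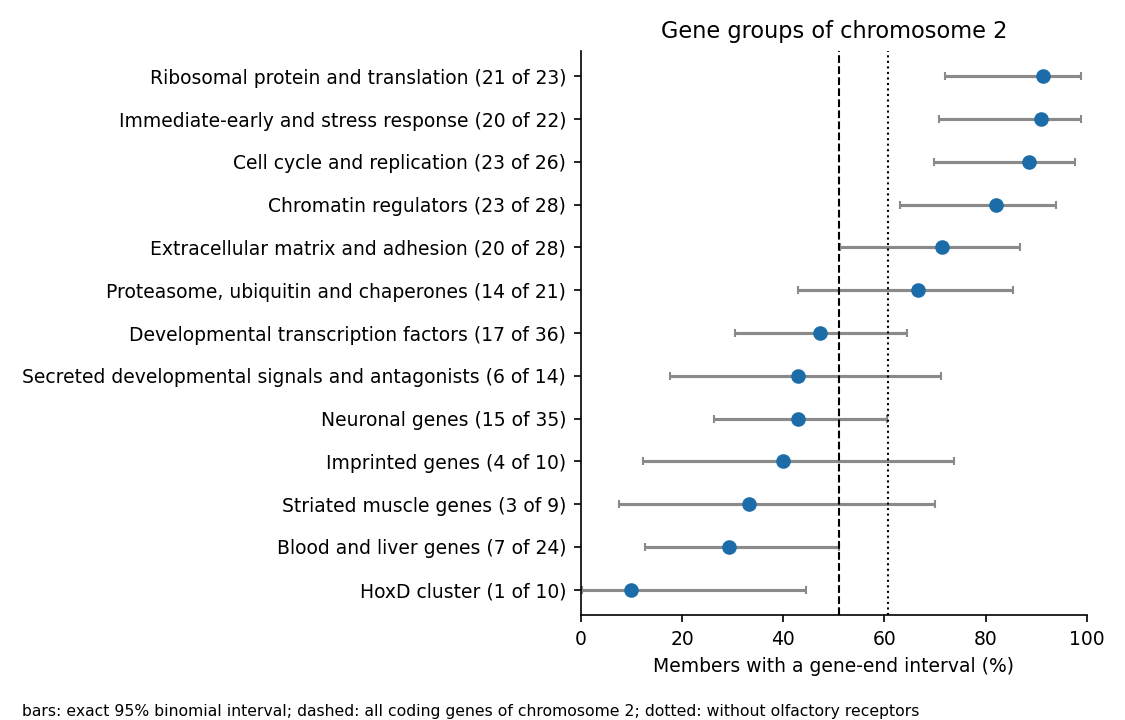
Percent of the chromosome 2 members of each gene group with a gene-end interval (points; bars are exact 95% binomial intervals, counting over genes only). The share is 91.3% for ribosomal protein and translation genes and 10.0% for the HoxD cluster; the lines mark 51.0% (dashed) and 60.8% (dotted).

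Genes of the matrix, which fibroblasts secrete to build connective tissue, stood between the chromatin and the proteasome group. Of 28 extracellular matrix and adhesion genes 20 had a gene-end interval (71.4%, interval 51.3 to 86.8), with a median total of 73499. The cartilage collagen gene Col9a3 carried the 228557 it shared with Mrgbp and Ogfr, whose maximum lay outside the piece at Col9a3. Olfml2a had 146134, the laminin gene Lama5 133356 with a maximum of 77, and the fibrillin gene Fbn1 111805. The interval at Olfml2a lay beside the gene and not over it. For Lama5 and Fbn1 the piece lay at the gene's far end, and the maximum of the Fbn1 region lay outside it. The hyaluronan receptor gene Cd44, the fibroblast surface protease gene Fap and the integrin gene Itga4 were the first without. Vim, which encodes the intermediate filament of mesenchymal cells, had 85139 and a maximum of 50.

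Developmental regulators were mixed, and the HoxD cluster stood at the low end. Of 36 developmental transcription factor genes, many of them textbook Polycomb targets, 17 had a gene-end interval (47.2%, interval 30.4 to 64.5). Their median maximum was 26. Foxs1, Sox12 (157430, maximum 63), Sox18, a factor of blood and lymph vessels (124141, 37), and the LIM homeobox gene Lhx6 (99821, 42) led. Low maxima, picked out after seeing them, belonged to the regions of Lhx2 (14), Gata5 (14), Pax1 (14), Tcf15 (15), Bhlhe23 (17), Scrt2 (18) and Dlx1 (19). For Tcf15 and Bhlhe23 the maximum lay outside the piece at the gene. Alx4, Barhl1 and the endoderm factor gene Foxa2 were the first without. In HoxD with its neighbour Evx2, from 74652989 to 74765142, the interval at Hoxd8, from 74704528 to 74706127, was the only one within 50 kb. It was 1600 bp wide with a total of 16817 and a maximum of 18, close to the lowest totals in the list. Hoxd1, Hoxd3, Hoxd4, Hoxd9, Hoxd10, Hoxd11, Hoxd12, Hoxd13 and Evx2 had none. The ground around the cluster was sparse as well. Of 28 other genes within 2 Mb 8 had a gene-end interval (28.6%), the bin from 70 to 80 Mb held 28 intervals for 70 genes, and the highest total among those 8 was 37891 at Sp3. Of 14 genes listed as secreted signals and antagonists, though Jag1 and Spred1 are not secreted, 6 had one (42.9%, interval 17.7 to 71.1). The Notch ligand gene Jag1 (111421, maximum 60) led, Avp and Oxt, the vasopressin and oxytocin genes, shared 58087 with a maximum of 18 (at the far end only for Oxt), and Fgf7 had 43493. Bdnf, Bmp2 and Bmp7 were the first without.

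Groups of genes known from other cell types had shares below 51.0%, with wide binomial intervals. Of 24 blood and liver genes 7 had one (29.2%, interval 12.6 to 51.1), led by the widely expressed protease inhibitor gene Cst3 (117414), C8g (65328), Cst7 (57220) and Cd40 (49778). Cd59a, Dpp4 and F2 were the first without. Of 9 striated muscle genes 3 did (33.3%, interval 7.49 to 70.1): Mylk2, Myh7b (112934) and Myl9 (25731), a light chain of smooth muscle and non-muscle myosin, and Actc1, Chrna1 and Neb were among those without. The interval of Myh7b lay at its far end only. Of 35 neuronal genes 15 did (42.9%, interval 26.3 to 60.6), with a median maximum of 22. Chrna4 (114911), the glutamate receptor gene Grin1 (93933), Dnm1 (81729) and Ntng2 (63915) led, with the interval at the far end only for Grin1 and Ntng2, and Cacna1b, Chgb and Chrna1 were the first without. Of 10 imprinted genes 4 did (exact interval 12.2 to 73.8%). H13 and Mcts2, which lies inside it, shared 208050, Gnas, the stimulatory G protein gene, had 97181 at its far end only and L3mbtl1 71239. Bdnf, Blcap and Gatm were the first without in that group. All these groups were drawn up with earlier results of these data known.

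The promoters under intervals differed in base composition from the others. On chromosome 2 RefSeq gave 1868 promoter windows of 1544 protein-coding genes, and an interval touched 835 of them (44.7%, against 46.7% on the other autosomes). Receptor windows, 245 of the 1868 and 697 of 18217 elsewhere, lower the first share more. Outside the receptors, 835 windows on chromosome 2 had an interval and 788 did not. On the other autosomes 8516 had one, 6 of them receptor windows, and 9010 outside the receptors did not, so the order of the shares turned. Windows with an interval held a median of 22 CG dinucleotides (quartiles 14 and 30) and had a GC content of 62.0%. Those without, olfactory receptors left out, held 7 (quartiles 3 and 17) at 53.0%. The 245 windows of olfactory receptor genes held a median of 1 at 32.7%. The share with an interval was 15% for windows with 0 to 4 CG dinucleotides (48 of 319, receptors left out), 26.8% at 5 to 9, 59.4% at 10 to 19, 70.3% at 20 to 29 and 80.1% at 30 or more. On the other autosomes the first of these shares was 7.54% and the last 82.0%. Hoxd13, printed above with 37, belongs to the last class, in which 221 of 276 windows had one, and Hoxd8 with 6 to the second, in which 71 of 265 did.

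Of 5 short motifs, searched on both strands, some differed between these windows and others hardly did. The GC box GGGCGG was found in 66.9% of windows with an interval, 33.9% of those without and 0 of the 245 receptor windows, against 44.2% of all windows of the chromosome. The TATA motif TATAAA was found in 4.55%, 12.7% and 49.4%, against 13.9% of all. The E-box CACGTG, which Myc and related factors bind, was in 9.10%, 5.20% and 2.86%, against 6.64%. The AP-1 motif TGANTCA was in 6.47%, 7.11% and 18.0%, against 8.24%, and CCAAT in 35.7%, 37.3% and 35.1%, against 36.3%. Among the printed promoters GGGCGG was found in Top1, Rps21 and Hoxd13, CACGTG in Top1, Hoxd13 and Olfr988, and TATAAA in Hoxd13. A match says only that the letters occur, and base composition alone changes how often they do.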

How the data were processed

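The authors deposited 1 list for the Ezh2 -/- cells, with 6 columns and no header. By SEACR's usual column order, total signal and maximum signal of a called region follow the coordinates, in the authors' units with no stated normalization. Per the submitters' processing notes the tools were Bowtie2 2.2.9, deepTools and the peak caller SEACR, on build mm10. No source used here gives the threshold, a control, duplicate handling, a transposase shift or the way the 2 replicates were joined. Depth is unknown. Of the 2483 chromosome 2 intervals 655 did not contain their own region of maximum.

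Rows sharing chromosome, both signals and region of maximum were collapsed before signal was summarised. A region in pieces took the site class of its widest piece. Bins used interval midpoints, or the position of the maximum for called regions. Genes were those of RefSeq on GRCm38.p6, and a gene had a gene-end interval where at least 1 bp overlapped 1000 bp around either end. A gene's signal is that of the overlapping region with the highest total. For shares, the 95% binomial intervals are exact (Clopper-Pearson).

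The members, 13 gene lists and the segments were chosen with earlier results of these data known. List entries on other chromosomes were dropped, leaving 286 entries. Genes were named by rule: up to 8 by total signal in the 5 densest bins, the 10 regions of highest total and of highest maximum, the 5 widest intervals, up to 4 leaders and the first 3 without an interval per list, all Hoxd genes, genes in receptor stretches, the 5 longest gaps, the 10 highest distal regions and the most shared or split regions. Others were chosen after their values were seen. Python 3.11.15 with numpy 2.4.6, pandas 2.3.3, scipy 1.17.1 and matplotlib 3.10.9 was used. On simulated intervals the gene lookup found 200 of 200 genes given one, and 0 of 1782 genes came out differently in a plain loop. Alternatives covered gene-end windows, overlap, gene set, bin edges, receptor joining and signal thresholds. No genome sequence was used, so distal intervals carry no sequence. A few genes that the naming rule selects are not reported here.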

Additional observations from a re-analysis of the deposited data

How the results depend on the processing

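The share of chromosome 2 intervals at gene ends, 25.8%, was 17.7% with windows of 500 bp, 35.8% with 2500 bp, 35.3% for any overlap, 30.8% with all genes of the table and 30.5% among intervals that hold their own maximum. The other autosomes were higher under each of these (25.4%, 45.5%, 45.4%, 40.7% and 39.9%). The share of genes with an interval, 51.0%, was 53.4% with 2500 bp, 40.9% and 27.8% above the median and the upper quartile of total signal, and 47.1% among intervals that hold their own maximum. The other autosomes stood at 52.6%, 34.0%, 20.1% and 47.4%, so the small excess of chromosome 2 turned in the last of these. The 4 dense 10-Mb bins held 60% of intervals above the median total signal and 49.3% of those that hold their own maximum, against 53.6%. With repeated values kept, the median total signal was 37426 against 32785. With windows of 2500 bp the median maximum at gene ends was 35.5 against 37 and the median total at distal sites 28370 against 29573.5, and 27269 over 10 kb from any gene end. The density ratio to other autosomes, 1.64, was 1.55 by called regions, 2.02 above the upper quartile of total signal and 1.24 with a maximum of at least 30, within 1.5 times of the first. The alternatives on intervals holding their maximum and on the density ratio were chosen after seeing the data. With edges shifted to the middle of each bin the densest bin held 94 in place of 80, and by called regions 57. The receptor stretches held 0 intervals when joined at 200 kb and at 1 Mb. No replicate could be left out, since the list pools them. No paired analysis was possible because the list holds no value per sample. Unknown depth leaves unseen which sites fell just under the threshold.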
